A study of Mus musculus with 2 samples.

Results

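The 10 genes described here are miRNA genes best known from nerve cells: Mir128-1, Mir128-2, Mir132, Mir212, Mir137, Mir138-1, Mir138-2, Mir218-1, Mir218-2 and Mir124a-1. They were taken by gene symbol, after matching the Ensembl identifiers of the count tables to GENCODE names, from 1973 miRNA genes in all. No level or ratio entered that rule, but the genes and the comparison lists were chosen with earlier results of these data known. Small RNA below 30 nt, from total RNA, had been sequenced from limbs of B6NCrl mouse embryos at embryonic day 15.5. There was 1 group of 2 biological replicates, pools of 78 embryos (replicate 1) and 62 embryos (replicate 2) with males and females together, and no treatment, mutant or second tissue. Because embryos were pooled, the spread between the replicates is a spread between pools.

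A miRNA is cut from a hairpin precursor whose stem yields a 5p and a 3p arm. The arm that is loaded into an Argonaute protein pairs through its seed, bases 2 to 8 from its 5′ end, with messenger RNAs and lowers their output. In neurons miR-124 represses messages of other cell types, miR-128 dampens excitability, miR-132 and miR-212 follow neuronal activity through CREB and shape dendrites, miR-137 and miR-138 act in neuronal maturation and at dendritic spines, and miR-218 is a mark of motor neurons. At this stage the limb holds axons and Schwann cells, while the cell bodies of the motor and sensory neurons lie outside it. In bulk tissue such as this, fewer cells of a type and less RNA per cell cannot be told apart.

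The sequences come first because they set which reads could be counted. In these tables reads with several alignments were totalled on a line of their own and entered no gene. They made up 29.4% of the 9187400 reads of replicate 1 and 29.7% of the 10851823 reads of replicate 2. RefSeq (GRCm38.p6) gave precursor and arm sequences for 9 of the 10 genes, with Mir124a-1 unmatched. The best known arm of each gene follows, 5′ to 3′, with the seed in capitals:
miR-132-3p: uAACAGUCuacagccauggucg
miR-212-3p: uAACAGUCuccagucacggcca
miR-137-3p: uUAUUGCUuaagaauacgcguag
miR-128-3p: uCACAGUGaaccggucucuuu
miR-138-5p: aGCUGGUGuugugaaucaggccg
miR-218-5p: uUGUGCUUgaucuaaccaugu

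By seed, miR-132-3p and miR-212-3p form 1 pair and share AACAGUC with no other arm in the table. They are identical at 17 of 22 positions, and the 5 differences, counted from the 5′ end of miR-132-3p, are A10C, C14U, U17C, U20C and G22A, all past the seed. The seeds of miR-137-3p, miR-128-3p and miR-138-5p occurred in no differently named arm. The seed of miR-218-5p also occurred in miR-7002-3p.

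Of the 18 arms of the 9 matched genes, 12 were found in no other of the 1005 RefSeq precursors, on either strand, and 6 had an exact copy in a second precursor. The 6 are miR-128-3p, miR-138-5p and miR-218-5p, each present in both of its genes. Mir132, Mir212 and Mir137 had no shared arm, and each of their 22-base windows was found in no other precursor. For the other 6 genes the precursors show how far the copies agree, with the stretch common to both copies in capitals:
Mir128-1: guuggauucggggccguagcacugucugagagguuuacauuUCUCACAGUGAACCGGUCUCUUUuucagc
Mir128-2: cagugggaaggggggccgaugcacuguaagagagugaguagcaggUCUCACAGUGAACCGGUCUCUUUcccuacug
Mir138-1: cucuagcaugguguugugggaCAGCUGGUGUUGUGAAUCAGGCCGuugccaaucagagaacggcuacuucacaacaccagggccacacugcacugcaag
Mir138-2: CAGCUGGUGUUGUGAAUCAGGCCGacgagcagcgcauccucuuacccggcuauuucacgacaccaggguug
Mir218-1: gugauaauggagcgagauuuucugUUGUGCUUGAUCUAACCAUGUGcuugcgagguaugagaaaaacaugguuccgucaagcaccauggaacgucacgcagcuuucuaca
Mir218-2: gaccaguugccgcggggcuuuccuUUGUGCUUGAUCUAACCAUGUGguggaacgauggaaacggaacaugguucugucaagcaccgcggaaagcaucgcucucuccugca

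The common stretch is 23 bases long in the Mir128 genes, 24 in the Mir138 genes and 22 in the Mir218 genes. Past the 3′ end of the annotated arm the copies share 0 bases in Mir128 and in Mir138 and 1 base in Mir218, and before its 5′ end they share 2, 1 and 0 bases. For Mir138 the stretch starts at the first annotated base of the Mir138-2 precursor, so the 1 base before the arm and the 24 in all are the fewest that the copies can share. A read of exactly miR-128-3p, miR-138-5p or miR-218-5p thus matches both copies, while a read of the opposite arm, or one that runs into bases that differ between the copies, can match 1. The opposite arms of the Mir128 genes carry 1 seed in different sequences:
miR-128-1-5p: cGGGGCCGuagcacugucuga
miR-128-2-5p: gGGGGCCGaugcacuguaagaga

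The counts are per gene and do not say which arm a read came from. For the Mir128, Mir138 and Mir218 genes they are counts of locus-specific reads only, and the reads common to both copies are in no value given here.

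**Figure D1:**
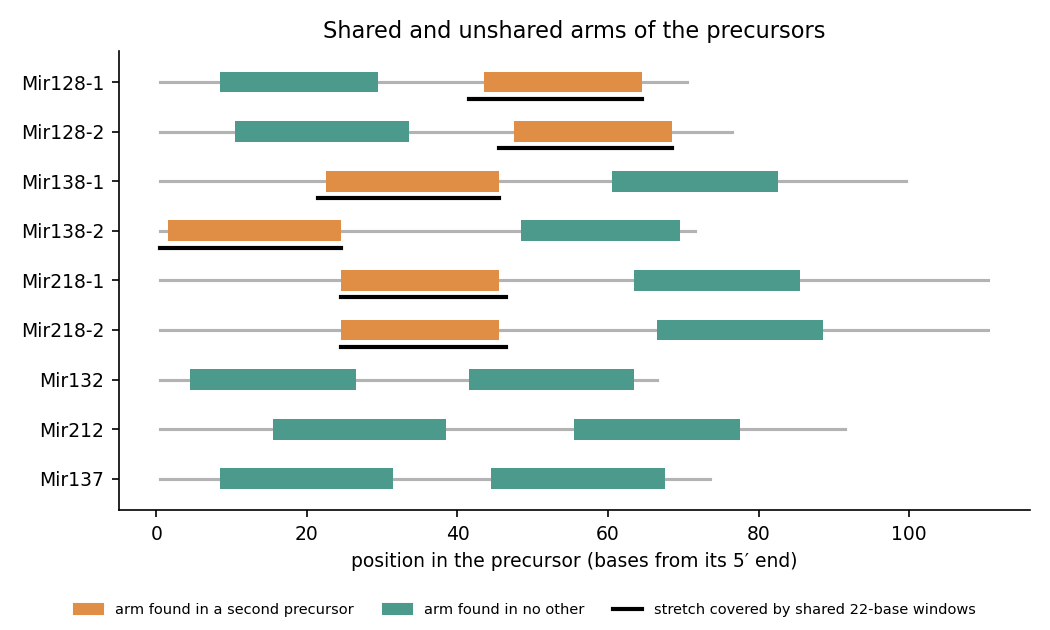
Precursors of the 9 matched genes drawn to scale, with position in bases from the 5′ end on the x axis and 1 gene per row. Boxes are annotated arms, orange where the arm also occurs in a second precursor (6 boxes) and green where it does not (12 boxes), and the black line marks the stretch covered by shared 22-base windows.

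On mm10, the intronic genes lie in both coding and non-coding hosts. Mir128-1 (chr1:128202361-128202430, plus strand) lies in an intron of R3hdm1, and Mir128-2 (chr9:112118636-112118711, minus strand) in an intron of Arpp21, a gene for a cyclic-AMP-regulated phosphoprotein of neurons. Mir218-1 (chr5:48223942-48224051, plus strand) and Mir218-2 (chr11:35616816-35616925, plus strand) lie in introns of Slit2 and Slit3, which encode secreted axon guidance ligands for Robo receptors. Mir212 (chr11:75173388-75173478) and Mir132 (chr11:75173682-75173747) lie 203 bases apart on the plus strand in an intron of the non-coding gene 1700016P03Rik.

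The other 4 genes overlap exons of non-coding hosts. Mir137 (chr3:118433857-118433929) overlaps an exon of Gm26871, Mir138-1 (chr9:122682876-122682974) an exon of the transcribed pseudogene Gm47135, Mir138-2 (chr8:94324311-94324381) an exon of the lincRNA C78859 and Mir124a-1 (chr14:64590657-64590741) an exon of the lincRNA Mir124a-1hg, all on the plus strand. No gene was annotated opposite any of the 10, and their antisense counts were 0 in both replicates. Host transcripts were not measured in this series.

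Together the 10 genes held 3788 sense counts in replicate 1 and 3859 in replicate 2, of library totals of 4263630 and 5151214. The group thus took up 0.0888% of replicate 1 (95% interval by the Wilson method 0.0861 to 0.0917) and 0.0749% of replicate 2 (0.0726 to 0.0773). Levels are given below as sense counts per 1000000 of the library's sense total (CPM). A read spans a whole miRNA arm, so no scaling by gene length was applied. At least 10 sense counts in both replicates, the rule for a detected gene, were found for 9 of the 10 genes. Among the 340 detected genes of the limb they ranked from 161 to 259 by mean CPM. The median detected gene had 167 CPM, with 2 of the 9 above it and 7 at or below. The tissue label was met by high counts of cartilage markers (Mir140 and Mir455, summing to 47612 CPM in replicate 1 and 45564 CPM in replicate 2) and epidermal markers (Mir203 and Mir205, 83441 and 94033 CPM).

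Of the neuronal activity pair, Mir132 was near the middle of the limb profile and Mir212 was low. Mir132 held 699 counts (164 CPM) in replicate 1 and 888 counts (172 CPM) in replicate 2, a mean of 168 ± 5.97 CPM (SD, n = 2). Mir212 had 65 counts (15.2 CPM) in replicate 1 and 72 counts (13.98 CPM) in replicate 2, and averaged 14.6 ± 0.897 CPM (SD, n = 2). The level of each was close between the pools, while the gap between the genes was wide, as Mir132 took 91.5% of the counts of the pair in replicate 1 (exact Clopper-Pearson 95% interval 89.3 to 93.4) and 92.5% in replicate 2 (90.6 to 94.1). These genes share a host and lie 203 bases apart, and none of their arms has a copy elsewhere in the table.

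Mir137, the other gene without a shared arm, is also known to target MITF in human melanoma cells. It held 303 counts (71.1 CPM) in replicate 1 and 384 counts (74.5 CPM) in replicate 2, a mean of 72.8 ± 2.46 CPM (SD, n = 2). Mir132, Mir212 and Mir137 together had 250 CPM in replicate 1 and 261 CPM in replicate 2. For these 3 genes the counts are not limited by copies among the precursors searched.

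The Mir128 genes, known from brain and also expressed in skeletal muscle, held more counted reads than any other family in the group. Mir128-1 held 974 counts (228 CPM) in replicate 1 and 781 counts (152 CPM) in replicate 2, a mean of 190 ± 54.3 CPM (SD, n = 2). Mir128-2 had 627 counts (147 CPM) in replicate 1 and 490 counts (95.1 CPM) in replicate 2, and averaged 121 ± 36.7 CPM. Both copies were higher in replicate 1. They lie on different chromosomes in different hosts, but which arm their counted reads came from is not known. The balance between them was nearly constant, with 60.8% of the family's counts at Mir128-1 in replicate 1 (exact interval 58.4 to 63.2) and 61.4% in replicate 2 (58.7 to 64.1).

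The Mir138 genes, of which miR-138-5p limits the size of dendritic spines, were about even. Mir138-2 held 469 counts (110.0 CPM) in replicate 1 and 545 counts (106 CPM) in replicate 2, a mean of 108 ± 2.97 CPM (SD, n = 2). Mir138-1 had 420 counts (98.5 CPM) in replicate 1 and 444 counts (86.2 CPM) in replicate 2, and averaged 92.4 ± 8.71 CPM. Mir138-1 took 47.2% of the pair's counts in replicate 1 (exact interval 43.9 to 50.6) and 44.9% in replicate 2 (41.8 to 48.1). Its share lay below 50% by more than counting error in replicate 2 and not in replicate 1.

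The Mir218 genes had the fewest counted reads of the families with detected genes, and the copy in Slit3 was above the copy in Slit2. Reads of exactly miR-218-5p match both copies, while no arm of Mir132, Mir212 or Mir137 has a copy in the table. The place of the family is thus one in counted reads and not in the level of the miRNA. Mir218-2 held 157 counts (36.8 CPM) in replicate 1 and 194 counts (37.7 CPM) in replicate 2, a mean of 37.2 ± 0.593 CPM (SD, n = 2). Mir218-1 had 74 counts (17.4 CPM) in replicate 1 and 61 counts (11.8 CPM) in replicate 2, and averaged 14.6 ± 3.90 CPM. Mir218-1 took 32.0% of the pair's counts in replicate 1 (exact interval 26.1 to 38.5) and 23.9% in replicate 2 (18.8 to 29.6). The intervals of the 2 replicates overlap, and both lie below 50%. Which copy makes more of the common miR-218-5p cannot be read from these shares, since reads of that arm match both.

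Mir124a-1, from the family most closely tied to neurons, had 0 counts in both replicates, which allows up to 0.704 CPM in replicate 1 and 0.582 CPM in replicate 2. Mir124a-2 and Mir124a-3 were also at 0 in both. Reads that align to more than 1 gene would be missing from all of these rows, so the zeros limit locus-specific reads and not the level of the miRNA. The same holds for Mir9-2, at 0 in both replicates, and Mir9-3, with 9 and 7 counts, 2 genes of the neural progenitor miRNA miR-9. Of the 16 neuronal marker genes listed, 15 were analysed, 9 were detected and 4 were at 0, and the list summed to 864 CPM in replicate 1 and 734 CPM in replicate 2. This list includes all genes described here except Mir218-1 and Mir218-2, so it is not separate from them. Its detected genes outside them were Mir153 (24.2 CPM in replicate 1 and 25.4 CPM in replicate 2) and Mir129-2 (2.35 and 5.24 CPM). Of the neuronal markers whose arms were searched for copies, Mir132, Mir212, Mir137 and Mir153 had none in the table, and all of these were detected in both replicates. Arms of the listed Mir124, Mir9 and Mir129 genes were not searched. The 5 analysed genes of the Mir124 and Mir9 families had thus 0 to 9 counts in each replicate, and Mir9-1 was not analysed here.

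**Figure D2:**
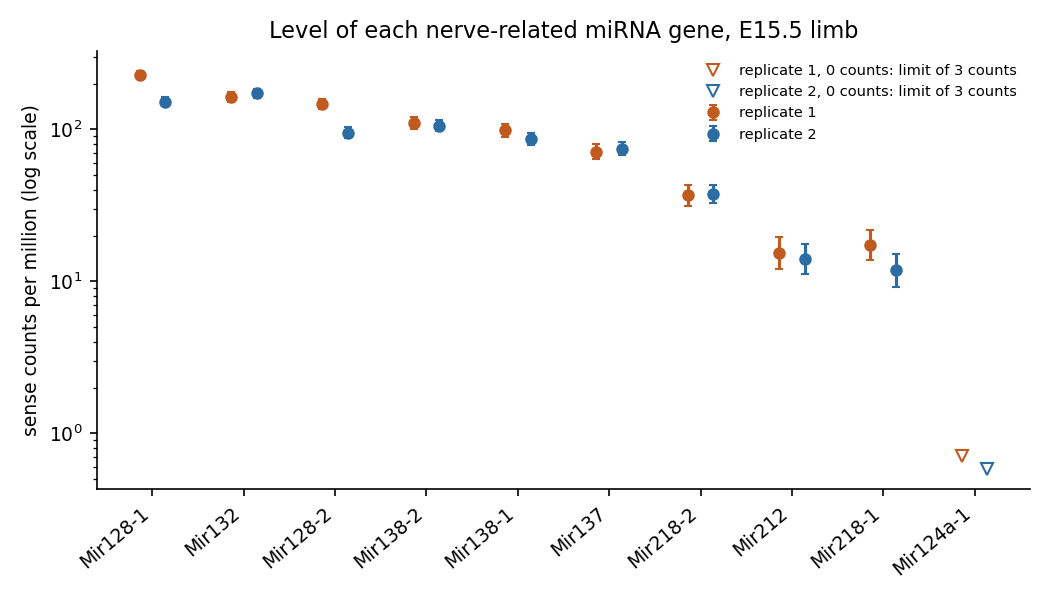
Level of each gene in CPM on a log axis, in replicate 1 (orange, left) and replicate 2 (blue, right), ordered by mean; bars are Wilson 95% intervals and cover counting error only. Detected genes run from Mir128-1 (228 and 152 CPM) down to Mir218-1 (17.4 and 11.8 CPM), and the open triangles give the limit of 3 counts for Mir124a-1 (0.704 and 0.582 CPM).

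By mean CPM the order was Mir128-1, Mir132, Mir128-2, Mir138-2, Mir138-1, Mir137, Mir218-2, Mir212 and Mir218-1. It is an order of counted reads, since the best known arm of the Mir128, Mir138 and Mir218 genes matches both copies. Of the 8 neighbouring pairs in this order, 5 had replicate values that did not overlap. The 3 that overlapped were Mir128-1 with Mir132, Mir128-2 with Mir138-2, and Mir212 with Mir218-1. In the ranking of all detected genes, Mir128-1 stood directly below Mir155 (174 CPM in replicate 1 and 217 CPM in replicate 2) and directly above Mir673 (230.1 CPM in replicate 1 and 148 CPM in replicate 2). Mir132 stood directly below Mir669c (175 and 171 CPM in replicates 1 and 2) and above Mir499 (246 and 89.7 CPM). Mir128-2 stood directly below Mir29a (142 and 111 CPM in replicates 1 and 2) and above Mir208b (168 and 66.8 CPM). With 2 libraries of 1 tissue this likeness is one of level alone.

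**Figure D3:**
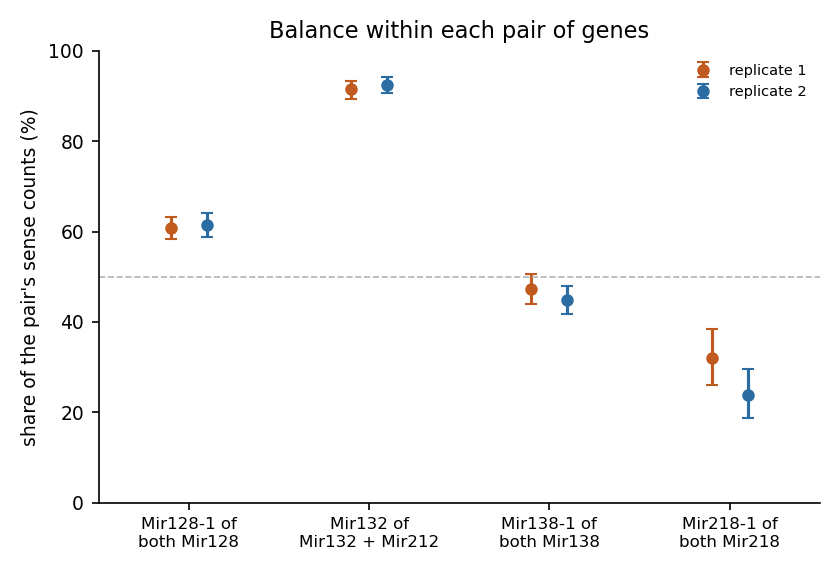
Share of each pair's sense counts held by its first named gene, in percent, in replicate 1 (orange, left) and replicate 2 (blue, right) with exact Clopper-Pearson 95% intervals; the dashed line marks 50%. Mir132 held over 90% of its pair in both replicates, and the intervals of the 2 replicates overlap for each of the 4 pairs.

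Between the replicates, the 2 Mir128 copies differed beyond counting noise and the other 7 detected genes did not pass the threshold. An exact two-sided binomial test on the counts of the 2 libraries was run over all 340 detected genes with Benjamini-Hochberg adjustment, and ratios are replicate 1 over replicate 2. The 2 that passed were 2 of 9 (22.2%), both higher in replicate 1, where 50.9% of all tested genes passed (25.6% of all tested as higher in replicate 1 and 25.3% as lower). The share of the nerve-related genes was thus below that of all genes, but it rests on 9 genes, and the 2 that passed are copies of Mir128. Whether this gap exceeds chance was not tested, and neither was the part of depth in it. This test compares 2 libraries with counting noise and says nothing about conditions. The median log2 ratio of the 9 genes was 0.13, against -0.02 over all tested genes.

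Mir128-1 was 1.51-fold higher in replicate 1, which is 0.59 on the log2 scale (exact 95% interval 0.45 to 0.73), with an adjusted p of 5.00e-17 from the exact test of counts. Mir128-2 was 1.55-fold higher, 0.63 on the log2 scale (0.46 to 0.80), with an adjusted p of 1.76e-12 from the same exact test. The skeletal muscle markers were also higher in replicate 1, with 4 of 4 past the threshold. Their summed level was 11549 CPM in replicate 1 and 4985 CPM in replicate 2, with none at 0. Among these, Mir206, a muscle miRNA induced by MyoD, was 2.31-fold higher in replicate 1, and Mir499, from an intron of Myh7b, 2.74-fold. Of all tested genes, 25.6% passed as higher in replicate 1 and 25.3% as lower. Mir673, directly below Mir128-1 by mean CPM, had a log2 ratio of 0.64, while the 4 muscle markers lay at or above 1.01. The part of muscle in the Mir128 difference was not tested.

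With the 2 Mir128 copies left aside, the other 8 genes summed to 513 CPM in replicate 1 (2187 counts) and 502 CPM in replicate 2 (2588 counts). The Wilson intervals of these sums overlapped, at 0.0492% to 0.0535% of the sense total in replicate 1 and 0.0483% to 0.0522% in replicate 2. The Mir128 copies made up 42.3% of the counts of all 10 genes in replicate 1 (exact interval 40.7 to 43.9) and 32.9% in replicate 2 (31.5 to 34.4). Log2 ratios were -0.07 for Mir132, -0.07 for Mir137, -0.03 for Mir218-2, 0.06 for Mir138-2, 0.13 for Mir212 and 0.19 for Mir138-1, and for each of these the exact 95% interval included 0. Mir218-1 had a log2 ratio of 0.55 (0.04 to 1.06) from 74 and 61 counts, with an unadjusted p of 0.0304 and an adjusted p of 0.0590 in the exact binomial test. With DESeq2 size factors as totals it passed (adjusted p = 0.0493, exact binomial test).

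When variation between the libraries beyond counting was allowed for, none of the 9 genes was called. The common dispersion over the detected genes, from edgeR with both libraries taken as 1 group, was equal to a coefficient of variation of 14.7%. An edgeR exact test with that dispersion called 3 genes (0.882% of the 340) and 0 of the 9, with 1 of the 9, Mir128-2, at an unadjusted p under 0.05 (p = 0.0461, edgeR exact test). The dispersion was estimated from the same 2 libraries. The differences of the Mir128 copies thus exceeded counting noise but did not pass with this estimate of the variation between pools.

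**Figure D4:**
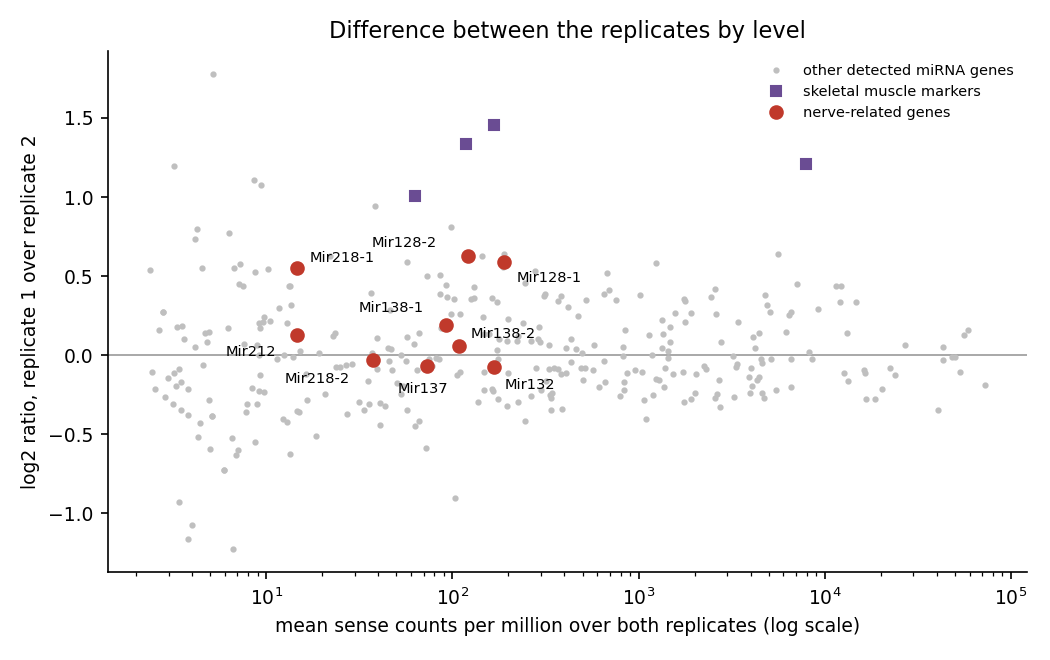
Log2 ratio of replicate 1 over replicate 2 against mean CPM (log axis) for the 340 detected genes, with the 9 detected nerve-related genes in red and the 4 skeletal muscle markers as purple squares. Mir128-1, Mir128-2 and Mir218-1 lie between 0.55 and 0.63 and the other 6 nerve-related genes between -0.07 and 0.19, while the muscle markers lie at or above 1.01.

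Other genes known from nerve and glia ranged more widely in level. Of 18 listed genes 17 were analysed (all but Mir9-1), 11 were detected, 2 passed the binomial test as higher in replicate 1 and 1 as lower, where 25.6% and 25.3% of all genes did. The list summed to 3555 CPM in replicate 1 and 3205 CPM in replicate 2, most of it from 2 genes. Mir139 had 1894 CPM in replicate 1 and 1638 CPM in replicate 2. Mir134, a dendritic miRNA of the imprinted Dlk1-Dio3 region, had 1414 CPM in replicate 1 and 1288 CPM in replicate 2. Both were among those higher in replicate 1, by log2 ratios of 0.21 and 0.13.

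Mir338, which promotes oligodendrocyte differentiation, had 137 CPM in replicate 1 and 160 CPM in replicate 2, which is -0.22 as a log2 ratio, and was the gene that passed as lower (adjusted p of 0.0111, exact test of counts). In replicates 1 and 2, Mir383 had 35.7 and 36.5 CPM, Mir153 had 24.2 and 25.4 CPM, and Mir219a-1, of the oligodendrocyte miRNA miR-219, had 81 and 116 counts. The 3 glial markers, Mir338, Mir219a-1 and Mir219a-2, were all lower in replicate 1, but of these Mir338 alone passed. They summed to 160 CPM in replicate 1 and 187 CPM in replicate 2. The arm miR-219a-5p of Mir219a-1 has exact copies in the precursors of Mir219a-2 and Mir219b. The counts of Mir219a-1 and Mir219a-2 thus lack reads of exactly that arm and do not give the level of miR-219. The sensory markers Mir183, Mir96 and Mir182 summed to 7779 CPM in replicate 1 and 8643 CPM in replicate 2, and 2 of the 3 passed as lower in replicate 1. The 10 nerve-related genes had 888 CPM in replicate 1 and 749 CPM in replicate 2. Differences between these lists were not tested.

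The 9 matched precursors had a median length of 76 bases and a median GC content of 54.5%, against 79 bases and 51.7% over the 1005 RefSeq precursors. Their minimum free energy, computed with RNAfold, ranged from -45.5 to -29.3 kcal/mol with a median of -37.2, against a median of -32.0 over all. Precursor ends are set by annotation, so these values describe the annotated sequences.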

How the data were processed

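The authors deposited, for each limb library, a table of raw counts of reads for every miRNA gene, on assembly mm10 with annotation M4, per the deposited README. The 3 columns, which have no header, were taken to hold the counts on either strand, in sense and in antisense, since the first was the sum of the others in every gene. Aligner, counter and trimming are not given in the sources used here. Symbols and hosts were taken from the GENCODE M21 annotation of GRCm38, which is mm10 (1894 of 1973 identifiers matched), and sequences from RefSeq GRCm38.p6. Copies were searched in RefSeq precursors and not in the genome.

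Lines that name no gene were left out of totals: unmapped reads (19.7% in replicate 1 and 18.8% in replicate 2), reads with several alignments (29.4% and 29.7%) and reads in no gene (4.54% and 3.99%). Sense counts were divided by the library's sense total (CPM). All detected genes (at least 10 counts in both replicates) were tested with an exact two-sided binomial test and Benjamini-Hochberg adjustment at a threshold of 0.05 (scipy 1.17.1, Python 3.11.15). The test was checked on counts simulated with counting noise alone, so the check does not cover variation between pools. With 1 group no quasi-likelihood test was possible. Alternatives used edgeR 4.0.16 and DESeq2 1.42.0 in R 4.3.3, other totals, count minimums and strand. RNAfold 2.7.2 gave free energies. Intervals, limits for a count of 0 (3 counts) and binomial p-values cover counting error only, as they hold no term for variation between pools. Molecular identifiers were not named. The genes and lists were chosen with earlier results of these data known. Named genes are the 10, up to 6 detected genes of the nerve and glia list, the level neighbours of the 3 highest, and marker genes set beside a result.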

Additional observations from a re-analysis of the deposited data

How the results depend on the processing

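The summed level of the 10 genes, 819 ± 98.5 CPM (SD, n = 2), moved beyond its SD under 2 alternatives: 502 CPM with the reads of several alignments added to the library totals, and 508 CPM without both Mir128 copies. Both alternatives must lower the sum, since a larger total lowers every level and fewer genes add up to less. The summed level lay between 749 and 888 CPM with 1 replicate left out, which with 2 replicates is always within the SD and says nothing about stability. The count of genes past the threshold between the replicates, 2, was 0 with the edgeR exact test with common dispersion, where both Mir128 copies lost their call and 3 of the 340 genes passed instead of 173. It was 3 with DESeq2 size factors, which added Mir218-1, and 2 with TMM-scaled totals, the other count minimums and counts irrespective of strand. The number of genes with enough counts in both replicates was 9 at minimums of 1 and 10 and 7 at 100. No log2 ratio changed its sign under the alternatives run, but this says little about stability. Other totals shifted every ratio by at most 0.0205, and the smallest ratio, that of Mir218-2, was 0.0325 in size. Other count minimums leave a ratio as it is. Tests without a replicate were not possible, as 1 library is left. No paired analysis was possible because there is 1 group. Depth limits Mir212 and Mir218-1 most, with under 100 counts each per library, and missing multi-aligned reads limit the Mir128, Mir138 and Mir218 genes.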
